A study of Homo sapiens with 15 samples.

Results

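HBD, RASL11B, TSPAN12 and KCNQ5 are 4 of the 16382 genes listed for MRC5 fibroblasts, and they were chosen by their fold changes in these libraries, which were opposite in fibroblasts grown with H196 cells and with H69 cells. HBD, RASL11B and TSPAN12 were lower with H196 and higher with H69, and KCNQ5 was higher with H196 and lower with H69. Because these fibroblast values chose the genes, they are given as a description with no test. H196 cells were not part of the choice, so the changes of the same genes in H196 cells, and of other genes of the same families, were tested.

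The fibroblasts are MRC5 cells, a line from human lung, and the tumour partners are the small cell lung cancer (SCLC) lines H69, which is neuroendocrine, and H196, which is not. MRC5_CoH196 and MRC5_CoH69 denote fibroblasts that had shared medium with H196 or H69, and MRC5_Mo those in mono-culture, while H196_Co and H196_Mo denote H196 cells kept with or without fibroblasts. Co-cultures lasted 7 days with the partners separated by a transwell membrane with 0.4-µm pores, and polyadenylated RNA was sequenced from 3 libraries per group, 15 in all. No group carried a transgene or received a drug, and each cell type is represented by 1 established line. The study's methods call the 3 libraries of a group parallel replicates without saying whether they came from separate cultures, so p-values measure the spread between these libraries, which may be technical. H69 cells themselves were not analysed here.

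The 4 genes belong to unrelated families. HBD encodes the delta chain of haemoglobin, a minor adult oxygen carrier made in erythroid cells. RASL11B encodes a small Ras-like GTPase, a relative of the Ras switches that lacks the usual lipid anchor and is annotated as a negative regulator of TGF-β receptor signalling. TSPAN12 encodes a tetraspanin, a protein with several membrane passes, and is known as the co-receptor that strengthens Norrin signalling through Frizzled-4 and LRP5 to β-catenin in retinal vessels. KCNQ5 encodes a pore subunit of the voltage-gated M-type potassium channel, which holds the membrane near rest and is best known in neurons and smooth muscle.

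Library totals ranged from 16073597 to 19170560 counts, and no library stood apart. All 8 fibroblast markers were above 1 CPM (counts scaled to library depth) in the MRC5 groups. CPM of the marker lists and of the 95 H196 genes below used library totals alone, while CPM elsewhere also used TMM factors. These factors were 0.916 to 0.941 in MRC5_CoH196 and 1.04 to 1.05 in MRC5_Mo. With them, marker levels would be higher in MRC5_CoH196 and lower in MRC5_Mo than given here. Their summed level ranged from 26700 to 29700 CPM in MRC5_Mo, from 30600 to 31600 in MRC5_CoH69 and from 12600 to 13300 in MRC5_CoH196, and the fall was carried by the collagens, with COL1A1 at 4420 CPM in MRC5_CoH196 and 14800 in MRC5_Mo. In MRC5_CoH196 and MRC5_Mo, in that order, DCN was at 1290 and 1320 CPM, LUM at 225 and 206 and FAP at 77 and 78.1. THY1 was at 552 and 652 CPM, and PDGFRB at 463 and 329. Fewer cells of a type and less RNA per cell cannot be told apart in such bulk libraries. None of the 7 listed neuroendocrine markers exceeded 1 CPM in any MRC5 group, and their sum was at most 1.71 CPM. Genes present in H196 cells and nearly absent from MRC5_Mo (95 genes that reached 20 CPM in each H196 library but stayed below 0.5 CPM in each library of MRC5_Mo, chosen after other results were known) summed to 8.97 to 9.92 CPM in MRC5_Mo, 8.36 to 10.4 in MRC5_CoH69 and 23.7 to 61.8 in MRC5_CoH196, against 7870 CPM in H196_Co. The part of these markers in the values of the 4 genes was not tested.

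A gene was called changed at a Benjamini-Hochberg adjusted p under 0.05 in edgeR's quasi-likelihood test and an absolute log2 fold change above 0.58. Of 12819 genes tested in MRC5 cells, 31.9% were called in MRC5_CoH196 (17.2% higher, 14.7% lower) and 0.554% in MRC5_CoH69 (0.421% higher, 0.133% lower), both against MRC5_Mo. The co-cultures shared 40 called genes, 32 of them with equal signs and 8 with opposite signs, 0.0624% of the genes tested. Of all tested genes, 0.0468% were lower with H196 and higher with H69, as HBD, RASL11B and TSPAN12 were, and 0.0156% the reverse, as KCNQ5 was. The 4 genes are among these 8 by the rule that chose them, so nothing follows from the count. The others were MYH11, LAMA3, CCL2 and CXCL12. Both comparisons use the same MRC5_Mo libraries, so a high or low value there pushes both fold changes. The 3 groups did not overlap, with MRC5_Mo in the middle, for all 4 genes and for 4.06% of the genes tested, 2.13% with MRC5_CoH196 lowest and 1.93% with MRC5_CoH196 highest.

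HBD was the most abundant of the 4 per unit of length. Its counts were 33, 31 and 38 in the MRC5_CoH196 libraries, 90, 73 and 81 in MRC5_Mo and 163, 131 and 133 in MRC5_CoH69. The highest MRC5_CoH196 library was below the lowest MRC5_Mo library, and the highest MRC5_Mo library was below the lowest MRC5_CoH69 library. Mean levels were 1.94 ± 0.199 CPM (SD, n = 3), 4.16 ± 0.444 CPM and 7.32 ± 0.845 CPM in the same order. The log2 fold change was -1.10 (SE 0.17) in MRC5_CoH196 and 0.81 (SE 0.13) in MRC5_CoH69, and MRC5_CoH196 was 3.76-fold lower than MRC5_CoH69 (log2 difference -1.91, SE 0.15, 28.2% of genes called between the co-cultures). HBD met both limits under each of the 8 other settings and with each of the 9 MRC5 libraries left out. Such refits use the values that chose the 4 genes, so here and below they describe stability only.

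RASL11B had 52, 33 and 55 counts in MRC5_CoH196, 93, 79 and 65 in MRC5_Mo and 131, 143 and 115 in MRC5_CoH69. The groups did not overlap, although the spread within MRC5_CoH196 was wide, with a coefficient of variation of 25.1%. Mean levels were 2.66 ± 0.667 CPM, 4.04 ± 0.699 CPM and 6.68 ± 0.795 CPM (SD, n = 3 each). The log2 fold change was -0.60 (SE 0.18) with H196 and 0.72 (SE 0.15) with H69. The change with H196 lay just inside the fold limit, and the gene was no longer called there without MRC5_CoH196 replicate 2 (-0.41) or MRC5_Mo replicate 1 (-0.47). With H69 it was called whichever library was left out (0.60 to 0.85).

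TSPAN12 had the lowest counts of the 4 genes. They were 24, 28 and 27 in MRC5_CoH196, 59, 36 and 39 in MRC5_Mo and 60, 65 and 85 in MRC5_CoH69. The groups did not overlap in CPM, but MRC5_Mo replicate 1, at 3.01 CPM, almost reached the lowest MRC5_CoH69 library at 3.05 CPM, and in FPKM (fragments scaled to gene length and library depth) these libraries were equal at 1.38. Mean levels were 1.50 ± 0.127 CPM, 2.29 ± 0.637 CPM and 3.60 ± 0.674 CPM (SD, n = 3 each). The log2 fold change was -0.60 (SE 0.23) with H196 and 0.66 (SE 0.19) with H69. It was the least stable of the 4. With H196 it was not called without MRC5_CoH196 replicate 1 (-0.53) or MRC5_Mo replicate 1 (-0.35). With H69 it was not called without MRC5_CoH69 replicate 2 (0.69) or replicate 3 (0.49), or without MRC5_Mo replicate 2 (0.51) or replicate 3 (0.57).

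KCNQ5 moved the other way. Its counts were 331, 302 and 303 in MRC5_CoH196, 152, 214 and 194 in MRC5_Mo and 118, 117 and 114 in MRC5_CoH69. Every MRC5_CoH196 library was above every MRC5_Mo library, and every MRC5_CoH69 library was below them. Mean levels were 17.8 ± 0.861 CPM, 9.55 ± 1.61 CPM and 5.99 ± 0.141 CPM (SD, n = 3 each). Both co-cultures were tight, and MRC5_Mo, with a coefficient of variation of 16.8%, was the most variable group. The log2 fold change was 0.90 (SE 0.097) with H196 and -0.67 (SE 0.11) with H69, and MRC5_CoH196 was 2.97-fold higher than MRC5_CoH69 (log2 difference 1.57, SE 0.11). Without MRC5_Mo replicate 2 the change with H69 was -0.57 and just outside the fold limit.

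**Figure D1:**
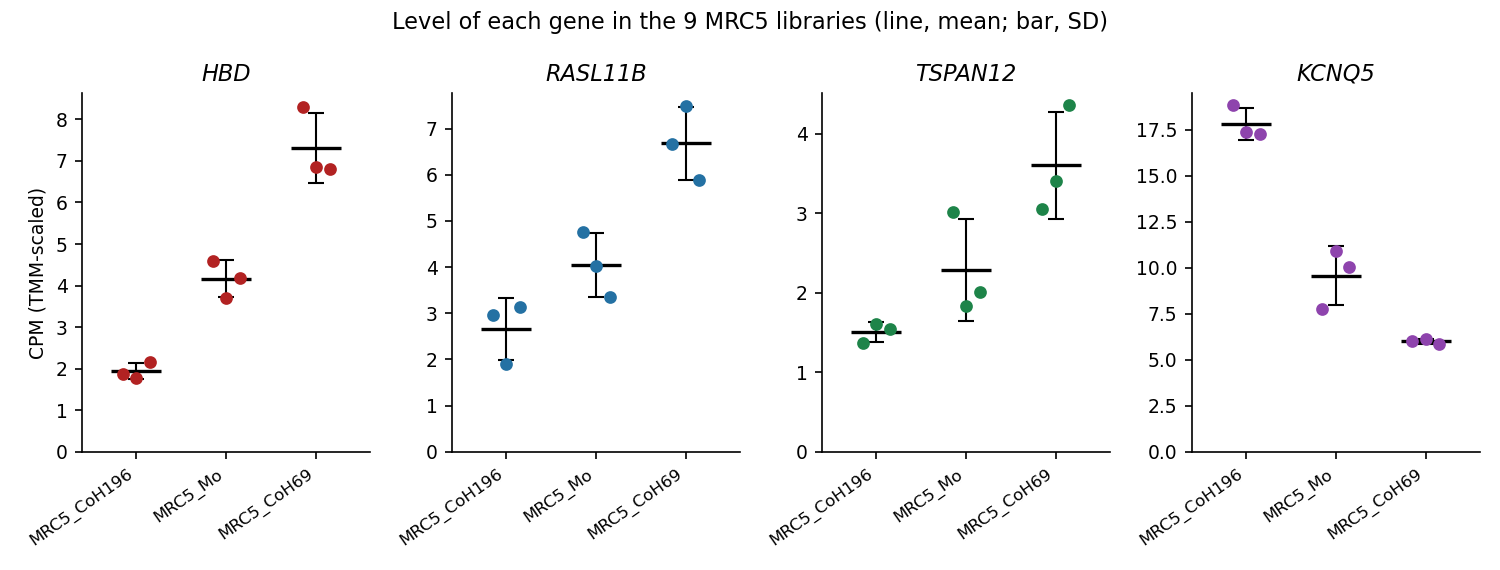
Level of each gene in CPM (vertical axes, each from 0) in the 3 MRC5 groups (horizontal axis), with a point per library, a line at the mean and a bar of 1 SD. HBD, RASL11B and TSPAN12 step up from MRC5_CoH196 to MRC5_Mo to MRC5_CoH69 without overlap, KCNQ5 steps down, and TSPAN12 shows the smallest gap, 3.01 against 3.05 CPM.

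The genes nearest the fold limit show how the group of 8 was bounded. RASL11B and TSPAN12, at -0.60 each with H196, were the last to be included. L1CAM, at 2.15 with H196 and -0.56 with H69, was the first left out, followed by HAS2 and COLEC12. In all, 124 genes had an adjusted p under 0.05 in both comparisons and opposite signs, and those beyond the 8 were under the fold limit in at least 1 comparison. The plot of both fold changes shows the 4 genes in otherwise thinly filled corners.

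**Figure D2:**
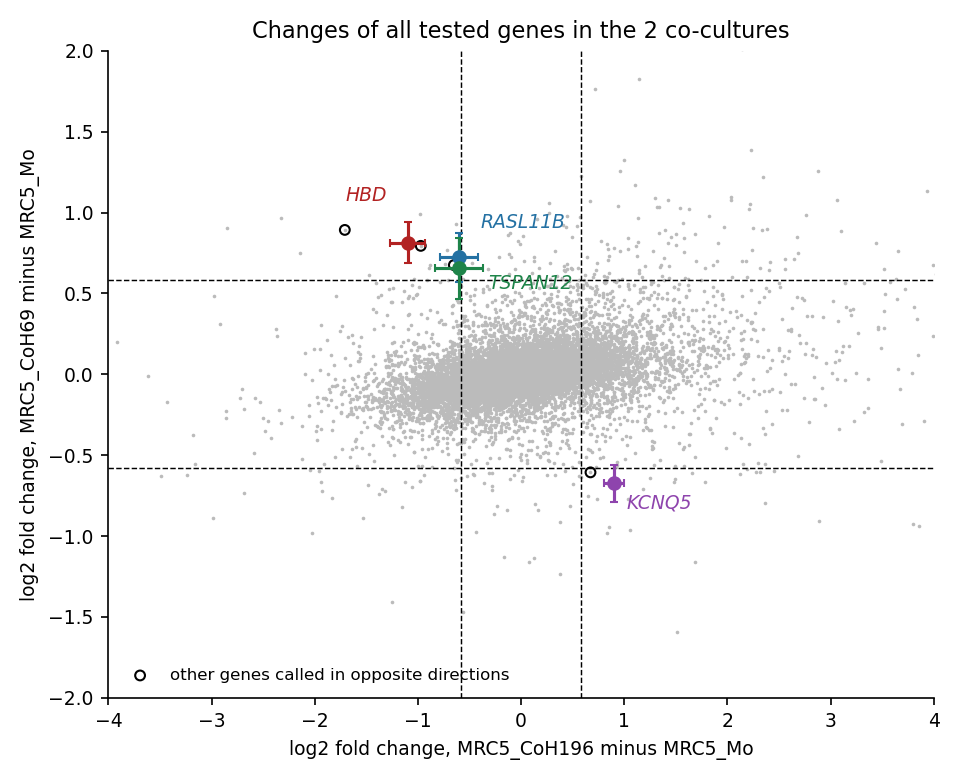
Log2 fold change of each of 12819 tested genes in MRC5_CoH196 (horizontal axis) and MRC5_CoH69 (vertical axis), both against MRC5_Mo, with dashed lines at 0.58 and -0.58 and 54 genes outside the axes. The 4 genes are coloured with bars of 1 SE, open circles are MYH11, LAMA3, CCL2 and CXCL12, and KCNQ5 and CXCL12 lie lower right while the others lie upper left.

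Compared per length, mean FPKM over the 9 MRC5 libraries was 13.7 for HBD, 2.69 for RASL11B, 1.91 for KCNQ5 and 1.10 for TSPAN12. HBD stood at percentile 62.4 of the tested genes on this scale and the other 3 between percentiles 13.4 and 24.1. In MRC5_Mo, HBD was at 12.8 ± 1.23 FPKM, while in MRC5_CoH196 it was at 5.34 ± 0.548 and in MRC5_CoH69 at 22.9 ± 2.97 (SD, n = 3 each). The FPKM scale places MRC5_CoH196 lower as a whole, with a median log2 difference over all genes of -0.13 from MRC5_Mo, against -0.003 on the TMM scale. On log2(FPKM + 1), which understates changes of low genes, HBD alone of the 4 met both limits in both co-cultures, and KCNQ5 changed by 0.50 with H196 and -0.39 with H69.

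H196 cells expressed TSPAN12 and KCNQ5 at higher levels than the fibroblasts and nearly lacked RASL11B. HBD was not analysed in H196 cells. The levels set side by side come from tables that the authors processed separately, so no test was made between the cell lines. TSPAN12 was at 7.55 ± 0.299 FPKM in H196_Mo and 1.05 ± 0.290 in MRC5_Mo, and KCNQ5 at 7.23 ± 0.335 and 1.75 ± 0.306 (SD, n = 3 each). RASL11B had 1 to 3 counts in the H196_Mo libraries and 2 to 6 in H196_Co, too few to test.

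Neither gene passed the test in H196 cells co-cultured with fibroblasts, where 3.86% of 12806 genes were called, 3.26% higher and 0.601% lower. TSPAN12 had 270, 248 and 253 counts in H196_Co and 286, 302 and 282 in H196_Mo, and the groups overlapped in CPM. Its log2 fold change was -0.11 (95% interval -0.30 to 0.085, adjusted p = 0.444, edgeR). KCNQ5 had 599, 660 and 673 counts in H196_Co and 734, 729 and 720 in H196_Mo. Its groups did not overlap in CPM, with 40.91 in the highest H196_Co library and 41.03 in the lowest H196_Mo library. The log2 fold change of KCNQ5 was -0.11 (95% interval -0.27 to 0.052, adjusted p = 0.340, edgeR). Both intervals leave out changes as large as those of the same genes in MRC5_CoH196.

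**Figure D3:**
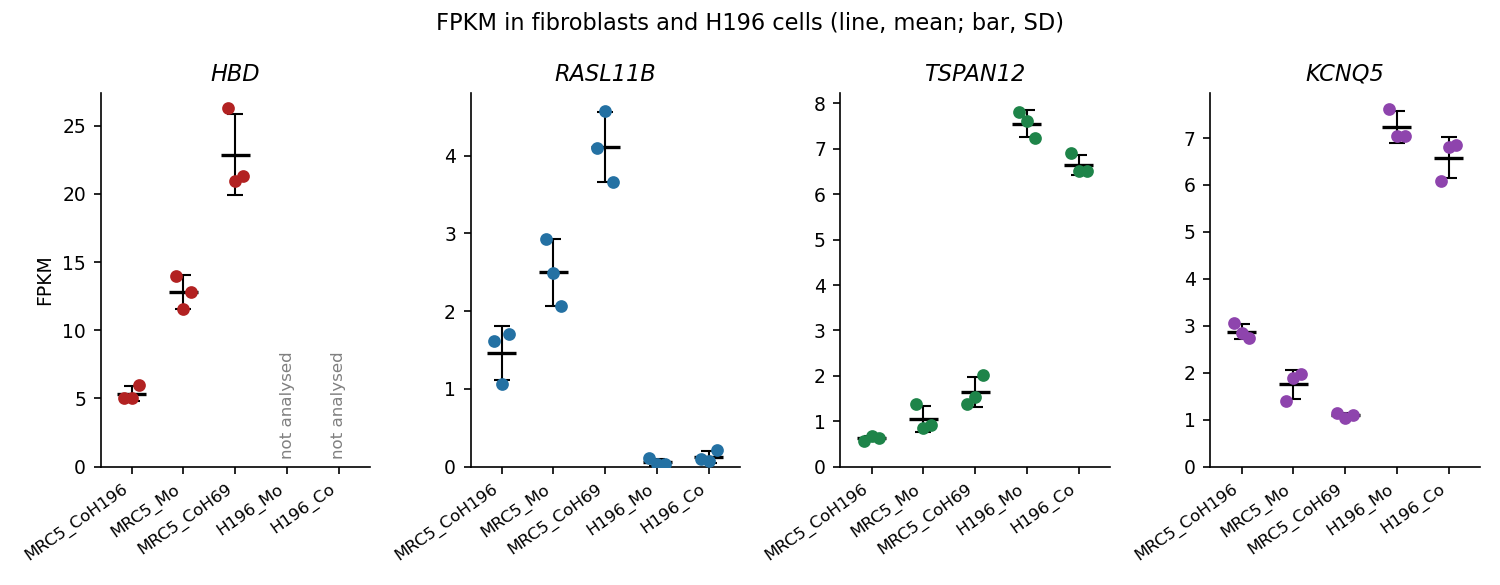
FPKM of each gene (vertical axes, each from 0) in the 5 groups (horizontal axis), with a point per library, a line at the mean and a bar of 1 SD. TSPAN12 and KCNQ5 are highest in H196 cells, at 7.55 and 7.23 FPKM in H196_Mo, RASL11B is near 0 there, and HBD was not analysed in H196 cells.

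KCNQ5 was both higher in H196 cells and higher in MRC5_CoH196, the MRC5 group where the 95 genes of H196 cells given above had their highest sum. TSPAN12 was also higher in H196 cells, at 7.55 FPKM in H196_Mo and 1.05 in MRC5_Mo, but was lower in MRC5_CoH196 (-0.60). The 95 genes stood in MRC5_CoH196 at a median of 0.505% of their H196_Co level, with 9.26% the highest of any single gene. In MRC5_Mo, where the choice itself kept them low, their median was 0.0671%. Mean KCNQ5 was 38.9 CPM in H196_Co, and the part of H196 RNA in the KCNQ5 level of MRC5_CoH196 was not tested.

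Among the small Ras-like GTPases, RASL11A, the closest relative of RASL11B, showed the same order of the 3 groups. RASL11A had 60, 56 and 70 counts in MRC5_CoH196, 127, 114 and 89 in MRC5_Mo and 153, 139 and 148 in MRC5_CoH69. The 3 groups did not overlap, which in this order held for 2.13% of all tested genes. It fell in MRC5_CoH196, with a log2 fold change of -0.67 (SE 0.14, adjusted p = 0.000203, edgeR), which was -0.55 and outside the fold limit without MRC5_Mo replicate 1. In MRC5_CoH69 it was 0.42 higher on the log2 scale (SE 0.12, adjusted p = 0.0375, edgeR), which passed the p limit but not the fold limit, and the adjusted p ranged from 0.0134 to 0.256 over the other settings. Directly compared, MRC5_CoH196 was lower than MRC5_CoH69 by a log2 difference of -1.09, called in all 17 other settings. RASL12, another relative, was at 1 to 13 counts and was not tested.

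Of the 23 tested Ras-like GTPases other than RASL11B, 5 rose and 2 fell in MRC5_CoH196, or 30.4%, close to the 31.9% of all genes, with none called in MRC5_CoH69. None of the other lists had a gene called in MRC5_CoH69 either, where 0.554% of all genes were called, and counts of 0 in lists this short are no result about them. The medians of the Ras-like GTPases were 0.25 with H196 and -0.023 with H69 on the log2 scale, against -0.003 and -3.36e-05 over all genes. The largest rises among those with at least 1 CPM were RASD2 (1.88) and RRAD (1.24), a GTPase that restrains calcium channels, followed by RRAS (0.82), an integrin-activating Ras relative, and RASD1 (0.74). In H196_Co, RASD2 (1.31), RASL10A (1.17) and RHEBL1 (0.62) rose and RRAD fell (-0.59). RASD2 in H196_Co was called in 6 of 12 other settings, and not without H196_Co replicate 3 (0.98) or any 1 of the H196_Mo libraries (1.29 to 1.33). RASL10A was not called without H196_Co replicate 2 (0.89), nor RRAD without H196_Co replicate 2 (-0.55) or H196_Mo replicate 2 (-0.57).

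TSPAN12 acts in a receptor complex, and its receptors there were not on opposite sides of 0 in the co-cultures. FZD4, the Frizzled-4 receptor, had 420, 484 and 402 counts in MRC5_CoH196, 353, 376 and 392 in MRC5_Mo and 461, 461 and 474 in MRC5_CoH69. Both co-cultures lay above MRC5_Mo, with log2 differences of 0.38 (adjusted p = 6.1e-05) and 0.33 (adjusted p = 0.00647, edgeR), both below the fold limit. LRP5, its co-receptor, was higher with H196 by 0.57 on the log2 scale (SE 0.057), just under the limit, and by 0.18 with H69. LRP5 was called with H196 without MRC5_CoH196 replicate 2 (0.64), MRC5_Mo replicate 1 (0.59) or MRC5_Mo replicate 2 (0.59). Of 12 tested genes of the Norrin complex and β-catenin machinery, TCF7L1, a repressor of β-catenin targets, rose with H196 (0.64), so 8.33% were called, against 31.9% of all genes.

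Of 4 tested β-catenin targets, TCF7 fell with H196 (-0.82), 25% against 31.9% of all genes. In H196_Co, 4 of 8 tested targets rose and none fell, where 3.26% of all genes were called higher and 0.601% lower. They were NKD1 (1.52), SP5 (1.04), NOTUM (1.01) and NKD2 (0.78), of which NKD1, NKD2 and NOTUM encode feedback inhibitors of Wnt signalling. In H196_Co, NKD1 was called in 10 of 12 other settings, not on log2(FPKM + 1) or log2(FPKM + 0.1), with values down to 0.081. NOTUM and NKD2 were not called on log2(FPKM + 1). TSPAN12 itself passed no test there, as given above.

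Of 22 tested tetraspanins other than TSPAN12, 4 rose and 1 fell with H196, or 22.7% against 31.9% of all genes. TSPAN18 (2.32), TSPAN2 (0.73) and CD9 (0.63), a tetraspanin linked to cell adhesion and fusion, rose, and TSPAN10 fell (-0.68). CD9 had a log2 difference of -0.22 with H69 (adjusted p = 0.00799, edgeR), under the fold limit, the reverse of the TSPAN12 signs. Among 8 proteins known to bind tetraspanins, PTGFRN (0.70) and ITGB1 (0.59), the integrin β1 chain, rose with H196, which is 25% against 31.9% of all genes. ITGB1 was not called without MRC5_CoH196 replicate 2 (0.56) or MRC5_Mo replicate 3 (0.57). ITGA6, the integrin α6 chain of the same list, named after its values were seen, had opposite signs with H196 (0.40, SE 0.058, adjusted p = 9.7e-07) and with H69 (-0.55, SE 0.060, adjusted p = 9.2e-07, edgeR), both below the fold limit and both the reverse of TSPAN12. ADAM10, a protease that tetraspanins escort to the cell surface, was 0.44 higher (SE 0.048) and below the limit. In H196_Co, UPK1A (1.30) and MMP14 (0.69) rose.

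KCNQ5 can pair with KCNQ3, which rose with H196 as well but was not lower with H69. KCNQ3 had 111, 129 and 135 counts in MRC5_CoH196, 48, 75 and 68 in MRC5_Mo and 83, 91 and 84 in MRC5_CoH69. The log2 fold change was 1.13 (SE 0.15, adjusted p = 1.7e-07, edgeR) with H196. With H69 it was 0.44 (SE 0.16, adjusted p = 0.0927, edgeR), on the other side of 0 from KCNQ5 and not called. Per length, KCNQ3 stayed below KCNQ5 in MRC5_CoH196, at 0.637 ± 0.0681 and 2.88 ± 0.162 FPKM (SD, n = 3 each).

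Of 9 tested KCNQ subunits and partners, 4 rose and 1 fell with H196, or 55.6% against 31.9% of all genes. Beside KCNQ3, the rises were in SLC5A3 (2.20), the sodium/myo-inositol cotransporter that associates with KCNQ channels, KCNE4 (1.46), an inhibitory accessory subunit, and NEDD4L (0.80), a ubiquitin ligase that removes the channels from the membrane. Of 29 other potassium channel subunits tested, 10 rose and 3 fell with H196, or 44.8% against 31.9% of all genes. They included KCNJ6 (1.87), KCNN4 (1.85), the calcium-activated channel of many non-excitable cells, and KCNG1 (1.29) among those that rose, and KCNK2 (-1.42), a leak channel, among those that fell. In H196_Co, KCNJ11 (0.69) and KCNIP3 (0.61) rose, KCNIP3 not without H196_Co replicate 1 (0.55) or H196_Mo replicate 1 (0.57).

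Other erythroid genes were near 0 beside HBD. Of 12 listed erythroid genes, 3 were in the MRC5 table, and their sum was at most 0.216 CPM in any MRC5 library. Apart from HBD, CYGB, a globin of fibroblasts and other non-erythroid cells, rose with H196 by 1.62 on the log2 scale (SE 0.072, adjusted p = 3.2e-16, edgeR), from 14.3 ± 1.45 to 43.9 ± 1.59 CPM (SD, n = 3 each). CYGB was 0.34 higher with H69 (adjusted p = 0.00995, edgeR), under the fold limit. Its direction with H196 was thus the reverse of HBD. The other 2 tested globin genes were not called in either comparison, and 1 of them was about as abundant as HBD, at 56 to 89 counts in each MRC5 library.

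Haemoglobin chains carry haem, and the haem pathway was measured alongside. Of 12 tested genes of haem synthesis and breakdown, 4 fell with H196 and none rose, or 33.3%, close to the 31.9% of all genes called (14.7% lower). They included HMOX1 (-1.84), the enzyme that degrades haem, and the synthesis enzymes FECH (-0.75) and UROD (-0.62). HMOX1 was -0.34 with H69 (adjusted p = 0.00333, edgeR), below the fold limit, and it rose in H196_Co (1.40).

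**Figure D4:**
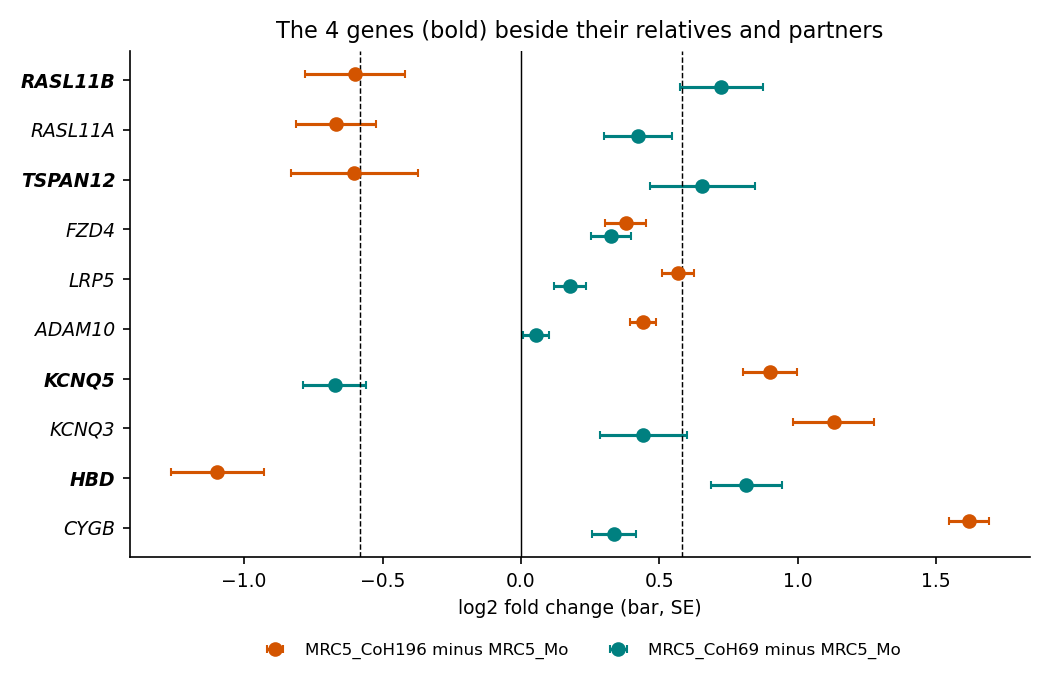
Log2 fold change against MRC5_Mo (horizontal axis, bars of 1 SE) of the 4 genes, in bold, and 6 relatives or partners, with MRC5_CoH196 in orange, MRC5_CoH69 in teal and dashed lines at 0.58 and -0.58. RASL11A is on opposite sides of 0 in the co-cultures as RASL11B is, at -0.67 and 0.42, while FZD4, LRP5, ADAM10, KCNQ3 and CYGB are on the same side in both.

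The genes most like each member were ranked by Pearson's r of log2 CPM over the 9 MRC5 libraries among 12068 genes with at least 1 CPM. These libraries fall into 3 groups, so r mostly reflects the order of the group means, and it is a description only. For HBD the nearest were LMOD1 (0.992), a smooth muscle actin nucleator, LAMA3 (0.988), a laminin chain, and NTN4 (0.988), a laminin-like basement membrane protein. For KCNQ5 they were CXCL12 (0.993), a chemokine of stromal cells, FGF5 (0.986), a growth factor, and AHNAK2 (0.985). For RASL11B they were TMEM98 (0.979), NACC2 (0.972) and ATP11A (0.963). For TSPAN12 they were APOL3 (0.98), AOPEP (0.973) and TRIM22 (0.97), of which APOL3 and TRIM22 are interferon-inducible. Of these 12 genes, LAMA3 and CXCL12 also met both limits in both comparisons.

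The 4 genes lie on different chromosomes in the authors' build, GRCh38.p13. HBD (gene ID 3045) spans 5232838 to 5234483 on chromosome 11, RASL11B (65997) 52751174 to 52866835 on chromosome 4, TSPAN12 (23554) 120787320 to 120858337 on chromosome 7 and KCNQ5 (56479) 72621843 to 73198853 on chromosome 6. The RASL11B entry starts well before the RefSeq gene of GRCh38.p14, which begins at 52862317. No other tested gene overlapped any of the 4 intervals, and none of the nearest tested neighbours was called in MRC5_CoH69. Next to RASL11B, SCFD2, 5.8 kb away, fell with H196 by 1.19 on the log2 scale and had -0.029 with H69. Next to TSPAN12, ING3, 92.4 kb away, fell with H196 by 0.65 and had 0.032 with H69.

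Reads can be shared between similar genes, which the counting splits by estimate. Of the 31-base windows in GENCODE v29 protein-coding transcripts, 9.01% of those of HBD, 0.144% of those of KCNQ5 and none of those of RASL11B or TSPAN12 also occurred in transcripts of other genes. HBD counts carry the uncertainty of that split.

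The promoter windows of the 4 genes shared no motif among those searched. The search covered, on both strands, the 250 bases before 1 RefSeq transcription start per gene (GRCh38.p14) for ACGTG and GCGTG, the core letters of hypoxia response elements, which overlap in CGTG, and for TGANTCA, the AP-1 site. ACGTG or GCGTG occurred in 43.2% of 35116 promoter windows of this length and in none of the 4, and TGANTCA occurred in 6.57% of them and in HBD alone of the 4. A match in letters does not show binding. HBD and RASL11B are shown because they moved in the same direction from windows at opposite ends of the 4 in base composition. G and C made up 45.2% for HBD (percentile 23.2 of all windows) and 80.4% for RASL11B (percentile 97.4). Capitals mark the TGANTCA match, and bases run 5′ to 3′ on each gene's own strand, minus for HBD (chr11:5234484-5234733) and plus for RASL11B (chr4:52862067-52862316).
HBD: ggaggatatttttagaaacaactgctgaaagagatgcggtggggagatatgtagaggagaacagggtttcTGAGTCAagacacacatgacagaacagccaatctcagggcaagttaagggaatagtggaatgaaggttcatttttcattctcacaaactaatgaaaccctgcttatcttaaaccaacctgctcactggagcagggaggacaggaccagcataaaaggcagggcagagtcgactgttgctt
RASL11B: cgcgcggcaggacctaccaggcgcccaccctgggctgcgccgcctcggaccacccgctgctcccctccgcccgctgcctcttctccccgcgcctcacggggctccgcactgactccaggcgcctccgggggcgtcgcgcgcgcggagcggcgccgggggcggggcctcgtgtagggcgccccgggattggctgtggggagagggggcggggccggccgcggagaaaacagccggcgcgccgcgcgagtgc
The RASL11B window held 39 CG pairs and the HBD window 2. The TSPAN12 start used lies inside the gene, so most of its window (120858145 to 120858394) falls within the interval given above. The whole RASL11B window and most of the KCNQ5 window (72621814 to 72622063) also fall within the intervals given for these genes. The windows of KCNQ5 and TSPAN12 were 64.0% and 50.8% G and C with 18 and 8 CG pairs. KCNQ5, which moved the other way, thus lay between RASL11B and the other 2 genes in composition.

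**Figure D5:**
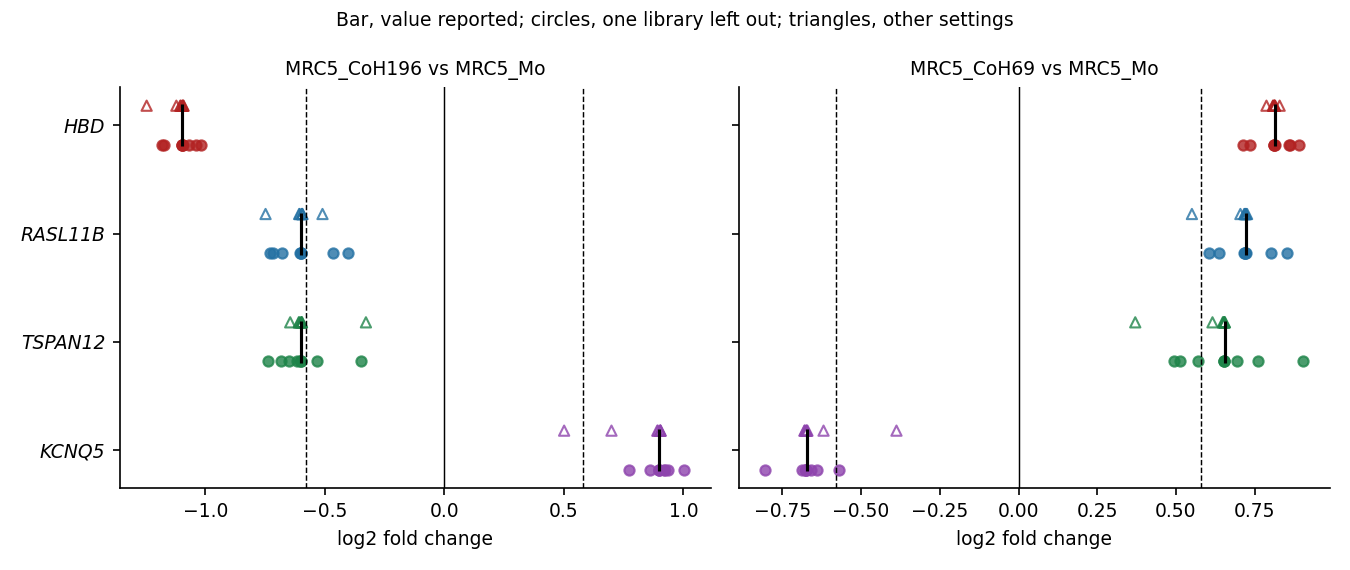
Log2 fold change (horizontal axes) of each gene against MRC5_Mo in MRC5_CoH196 (left) and MRC5_CoH69 (right), with black bars for the reported value, circles for each of 9 libraries left out, triangles for 8 other settings and dashed lines at 0.58 and -0.58. No gene crosses 0, HBD stays outside the dashed lines on both sides, and TSPAN12 with H69 spreads from 0.37 to 0.90.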

How the data were processed

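RNA-seq was analysed for 9 MRC5 and 6 H196 libraries, grouped by their labels. The authors cleaned the reads with SOAPnuke and aligned them to GRCh38.p13 with HISAT2 2.1.0 and Bowtie2 2.3.4.3, and the submitters' processing notes also name RSEM 1.3.1. The deposited expected counts are estimated reads per gene without normalization (93.7% whole in the MRC5 table, 92.1% in the H196 table) and were rounded. The deposited FPKM values were scaled by the authors for gene length and depth. The authors' fold changes, p-values and q-values, and 30 per-library columns of TPM and normalized counts, were not used. A duplicate of either table was identical and not used.

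Counts were filtered with filterByExpr, scaled by TMM and fitted with edgeR 4.0.16 quasi-likelihood models in R 4.3.3, 1 model per cell line, with two-sided tests. Calls followed the study's fold limit of 0.58 on the log2 scale, with adjusted p below 0.05. SE was obtained from each estimate and its F statistic. Alternatives were DESeq2 1.42.0 size factors and Wald test, limma 3.58.1 on log2(FPKM + 1) and log2(FPKM + 0.1), no filter, at least 10 counts in every library, a replicate block, a fit to the compared groups only, and each library left out. The models were tested on simulated counts. With 3 libraries a group, an exact permutation test of 1 gene could not go below p = 0.1, so none was used.

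The 4 genes, 10 gene lists and marker lists were chosen with earlier results of these data known. Named genes were the members, the 3 genes most like each, direct partners or relatives of the members, and from each list up to 4 genes called in MRC5_CoH196 with at least 1 CPM and the largest changes and any called in MRC5_CoH69 or H196_Co. Some genes of this rule are not reported here. Promoters are from RefSeq, GRCh38.p14, with all 4 members matched. Strand use in counting is not given in the sources used here.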

Additional observations from a re-analysis of the deposited data

Results flagged for a closer look

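KCNQ5 stood at a log2 difference of -0.11 in H196_Co against H196_Mo (95% interval -0.27 to 0.052) and of 0.90 in MRC5_CoH196 against MRC5_Mo. The opposite signs in the 2 cell lines flagged it, but the interval in H196 cells includes 0, so no direction was established there. The difference between the cell lines was not tested, and the change in H196 cells itself did not pass the test (adjusted p = 0.340, edgeR).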

How the results depend on the processing

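The direction of each of the 4 genes held in both co-cultures under all 8 settings and all 9 left-out libraries. The count of 8 genes changed in opposite directions was 5 by the DESeq2 Wald test, 2 on log2(FPKM + 1) and 5 on log2(FPKM + 0.1), and 4 to 9 with a library left out (4 without MRC5_Mo replicate 3, 5 without MRC5_Mo replicate 2). HBD was called both ways in each. TSPAN12 was not called with H69 by the Wald test (44 genes called with H69 in place of 71) or on either FPKM scale (18 on log2(FPKM + 1)). In H196 cells 494 genes were called, 195 on log2(FPKM + 1) and 424 to 517 with a library left out. With a library left out, 3961 to 4155 genes were called in MRC5_CoH196, 48 to 85 in MRC5_CoH69 and 3505 to 3681 between the co-cultures. The split of MRC5_CoH196 calls was 2207 higher and 1885 lower, but 915 and 2082 on log2(FPKM + 1). Between the co-cultures it was 1943 and 1675, but 821 and 1746. In H196 cells it was 417 and 77, but 306 and 111 on log2(FPKM + 0.1). No list gene named above reversed under any setting in a comparison where it was called. Same-numbered libraries did not deviate together (correlations of -0.151 to 0.081), so no pairing was seen, although 3 libraries per group cannot exclude it. With the replicate block 8 genes were called in opposite directions, 7 of them as before and all 4 members among them. HBD, RASL11B and TSPAN12 had under 100 counts per library in MRC5_Mo, and the cause of each lost call was not tested.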
